A study of Mus musculus with 6 samples.

Results

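Iron handling and the hepcidin pathway were examined in mouse liver through 10 genes: Hamp, Tfr2, Tfrc, Trf, Slc40a1, Bmp6, Id1, Smad7, Fth1 and Hmox1. The members were fixed by name, and each was represented by its brightest probe set among those that the array annotation pairs with a single gene symbol. This gave 9 of the 10 genes, out of 18193 genes with a probe set on the array. Trf, the plasma iron carrier transferrin, was not analysed here because its probe set was also paired with a second gene. For testing, a gene had to reach 4 on the log2 scale in 3 or more of the 6 livers. Of the 9 genes 8 did so, each of them in all 6 livers, and Bmp6 did not.

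The livers came from 6 male C57BL/6 mice aged 6 weeks, 3 labelled p14 KO, with a conditional knockout of p14 in the liver (KO 1 to KO 3), and 3 labelled WT (WT 1 to WT 3). p14 is the product of Lamtor2, a scaffold on late endosomes and a subunit of the Ragulator complex. The labels name no Cre driver and do not say which alleles the WT mice carried. Total RNA of each liver was hybridised to its own Affymetrix array, and the deposited values are log2 expression levels.

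Hepcidin, encoded by Hamp, is a peptide hormone that hepatocytes secrete to limit the entry of iron into plasma. It binds ferroportin, the iron exporter encoded by Slc40a1, and causes its degradation. Hepatocytes set Hamp transcription mainly through BMP ligands from sinusoidal endothelial cells, acting on SMAD proteins, and through interleukin-6 and STAT3 in inflammation. Inside cells the iron regulatory proteins bind transcripts such as Tfrc and Fth1, stabilising the first and blocking translation of the other, so that the ferritin transcript level does not report the ferritin protein level.

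RefSeq promoter windows of assembly GRCm38.p6 were examined for 5 of the 10 members, 9 windows in all. The 250 bases before the annotated start were searched on both strands for exact matches. The windows of Hamp and Tfrc are shown because each holds GGCGCC, the BMP-responsive element of hepcidin. That of Hamp2, the neighbouring copy of Hamp, is shown because its probe set is described beside Hamp. Capitals mark GGCGCC and TTCNNNGAA, the STAT motif.
Hamp, chr7:30944030-30944279, minus strand: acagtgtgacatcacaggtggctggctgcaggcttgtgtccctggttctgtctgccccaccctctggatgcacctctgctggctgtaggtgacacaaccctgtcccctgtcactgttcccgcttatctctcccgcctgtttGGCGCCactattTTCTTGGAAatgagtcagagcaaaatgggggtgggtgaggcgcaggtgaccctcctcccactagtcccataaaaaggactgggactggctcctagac
Hamp2, chr7:30924182-30924431, minus strand: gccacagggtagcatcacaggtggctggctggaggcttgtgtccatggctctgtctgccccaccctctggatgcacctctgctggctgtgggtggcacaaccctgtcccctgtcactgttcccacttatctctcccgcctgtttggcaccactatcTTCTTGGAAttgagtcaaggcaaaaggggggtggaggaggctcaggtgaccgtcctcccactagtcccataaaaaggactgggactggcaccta
Tfrc, chr16:32608646-32608895, plus strand: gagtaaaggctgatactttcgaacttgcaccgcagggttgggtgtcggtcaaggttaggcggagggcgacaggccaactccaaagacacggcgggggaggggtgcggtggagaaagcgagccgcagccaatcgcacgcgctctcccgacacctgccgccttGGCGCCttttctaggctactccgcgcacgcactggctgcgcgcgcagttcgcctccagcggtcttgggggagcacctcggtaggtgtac

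In Hamp, GGCGCC began at position -109 and TTCTTGGAA at -97, counted in bases from the start. Hamp2 held the same TTCTTGGAA at -94. At the place that corresponds to the hepcidin GGCGCC, the difference between Hamp and Hamp2 was G4A, counted from the first base of the motif. Over 60 bases around the STAT motif, 54 were identical between these neighbours. The Tfrc window held GGCGCC at -89 and no STAT match. In the Bmp6 window there were 2 matches to TGANNNNGC, the core of the antioxidant response element, and 1 to CACGTG, an E-box. The windows of Tfr2 and Fth1 and the other window of Tfrc held none of these motifs. No window was searched for Smad7, Slc40a1, Id1, Hmox1 or Trf, so whether their promoters hold these motifs was not tested. Across the 32851 windows counted, GGCGCC occurred in 9.59%, TTCNNNGAA in 7.02%, TGANNNNGC in 35.2% and CACGTG in 6.02%. A match describes these letters only.

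The arrays differed in ways that touch the results below. The targeted gene Lamtor2 measured 10.08, 10.19 and 10.11 on KO 1 to KO 3 and 11.32, 11.29 and 11.35 on WT 1 to WT 3 (limma, Benjamini-Hochberg adjusted p = 0.0104). Leaving out KO 2, WT 1, WT 2 or WT 3 took it past the threshold of 0.05, to a limma adjusted p between 0.0505 and 0.114, with differences between -1.23 and -1.18. KO 3 stood apart: across genes its mean correlation was 0.986 with the other KO mice and 0.987 with the WT mice. WT 2 held skeletal muscle transcripts, with Acta1 at 13.72 against 2.32 to 3.25 on the other arrays. The 18S rRNA controls lay between 8.50 and 9.25 in KO and between 7.77 and 8.44 in WT, and the 3 prime minus 5 prime difference of the pyruvate carboxylase controls between 3.51 and 3.58 in KO and between 3.99 and 4.85 in WT. Hepatocyte markers such as Alb, Apoa1 and Cps1 were bright everywhere, with list means of 15.52 to 15.57 in KO and 15.54 to 15.59 in WT.

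The comparison of KO with WT asks whether these iron genes differ in livers with the p14 knockout, where the mean Lamtor2 level was 43.8% of WT. None of the 8 measured members was called at an adjusted p under 0.05 (limma, two-sided, adjusted over all 10009 genes tested), and 2, Id1 and Tfr2, had an unadjusted p under 0.05. In the same comparison 0.17% of all genes were called, 17 in number, and 14.5% had an unadjusted p under 0.05. The KO mean was above the WT mean for Hamp, Tfr2 and Smad7 and below it for Id1, Tfrc, Slc40a1, Fth1 and Hmox1. In 3 of the 8 the groups did not overlap, Tfr2 being higher and Id1 and Fth1 lower in KO. Over all genes tested the groups did not overlap for 20.5%, higher in KO for 6.54% and lower for 14%. The median difference, KO minus WT on the log2 scale, was -0.15 over the 8 members and -0.04 over all genes. A p that misses the threshold does not show that the groups were alike, and the 95% intervals below give the differences these 6 arrays allow. With 3 against 3 arrays the smallest exact two-sided permutation p is 0.1.

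**Figure D1:**
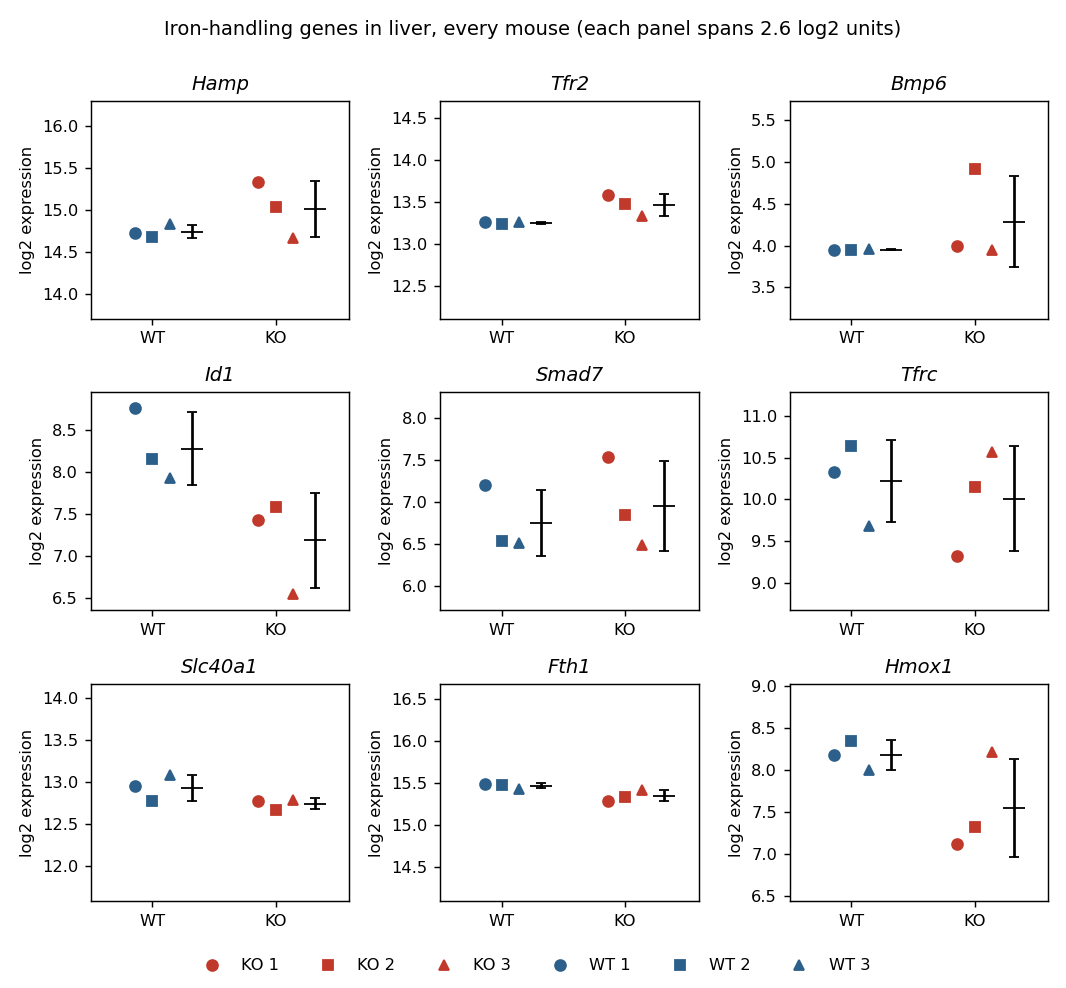
Log2 expression of the 9 members with a probe set, one panel per gene, each spanning 2.6 log2 units. Points are single mice (shape gives the mouse number), and bars beside them give the mean and SD of 3 mice. Hamp was highest on KO 1 and KO 2, while Id1 had all 3 KO mice below all 3 WT mice.

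Hamp, the hormone transcript, measured 15.34, 15.04 and 14.67 on KO 1 to KO 3 and 14.72, 14.68 and 14.83 on WT 1 to WT 3 (log2). Both KO 1 and KO 2 lay above every WT mouse, and KO 3 was the lowest of all 6. Hamp averaged 15.02 ± 0.33 in the KO mice against 14.74 ± 0.08 in the WT mice (SD over 3 mice a group). The difference of 0.27 (95% interval -0.16 to 0.70) did not pass (limma adjusted p = 0.492, exact permutation p = 0.4). It was 0.11 without KO 1 and 0.45 without KO 3, with limma adjusted p = 0.764 and 0.172. The other Hamp probe set, whose name marks probes that can match more than 1 transcript, gave 15.21, 15.00 and 14.66 in KO and 14.74, 14.70 and 14.81 in WT, the same order of the KO mice.

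The Hamp2 probe set went the other way over the same KO mice. Hamp2 encodes a close relative of hepcidin, and this gene was chosen after its values were seen because its sequence is so like that of Hamp. It measured 14.68, 15.27 and 15.61 on KO 1 to KO 3 and 15.93, 15.65 and 15.56 on WT 1 to WT 3. KO 1, the mouse with the highest Hamp value, had the lowest Hamp2 value. The Hamp2 difference was -0.52 (limma adjusted p = 0.389), and the groups overlapped; it was -0.27 without KO 1. This probe set can also match more than 1 transcript, and a further Hamp2 probe set was at the lowest value of the table, 2.18, on every array, so how far each set reads Hamp or Hamp2 is uncertain.

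Among the KO mice, 10 of 14 genes of the acute-phase response, the plasma protein programme of inflammation, were lowest on KO 3, as Hamp was. Fga, Fgb, Fgg and Cp were not. The share of all genes tested that were lowest on KO 3 was not counted, and KO 3 stood apart across genes. Saa1, a serum amyloid A gene chosen after its values were seen, measured 15.83, 15.78 and 12.22 on KO 1 to KO 3 and 10.83 to 12.03 in WT. Lcn2, which encodes the siderophore-binding protein lipocalin 2, measured 14.33, 13.64 and 8.43 in KO and 9.42, 8.81 and 7.70 in WT. The mice KO 1 and KO 2 were far above the rest for both, and KO 3 was within the WT range for Lcn2. Lcn2 did not pass with all arrays (difference 3.49, limma adjusted p = 0.378). Without KO 3, the KO mouse within the WT range, Lcn2 was called at 5.34 (limma adjusted p = 0.0388). Leaving out KO 3 also raised the number of genes called over all genes, as given in the closing section. Itih4, an inter-alpha-trypsin inhibitor heavy chain, measured 15.46, 15.48 and 15.21 in KO and 15.02 to 15.10 in WT, a difference of 0.32 (limma adjusted p = 0.267).

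Of 14 acute-phase genes tested 12 had the higher mean in KO, 5 without overlap, and 0 were called (5 at an unadjusted limma p under 0.05). Of all genes tested, 6.54% were higher in KO without overlap and 14.5% had an unadjusted limma p under 0.05. The median of the acute-phase list was 0.19. List means were 14.47, 14.43 and 13.33 on KO 1 to KO 3 and 13.25 to 13.40 in WT. The 3 fibrinogen genes are in this list, and Fga and Fgg differed by only 0.03 each. Saa3, another serum amyloid A gene, went the other way, at 9.11, 8.90 and 8.36 in KO against 9.50, 9.54 and 9.004 in WT, a difference of -0.56 (limma adjusted p = 0.358). Whether inflammation was present in KO 1 and KO 2, or had a part in their Hamp values, was not tested.

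**Figure D2:**
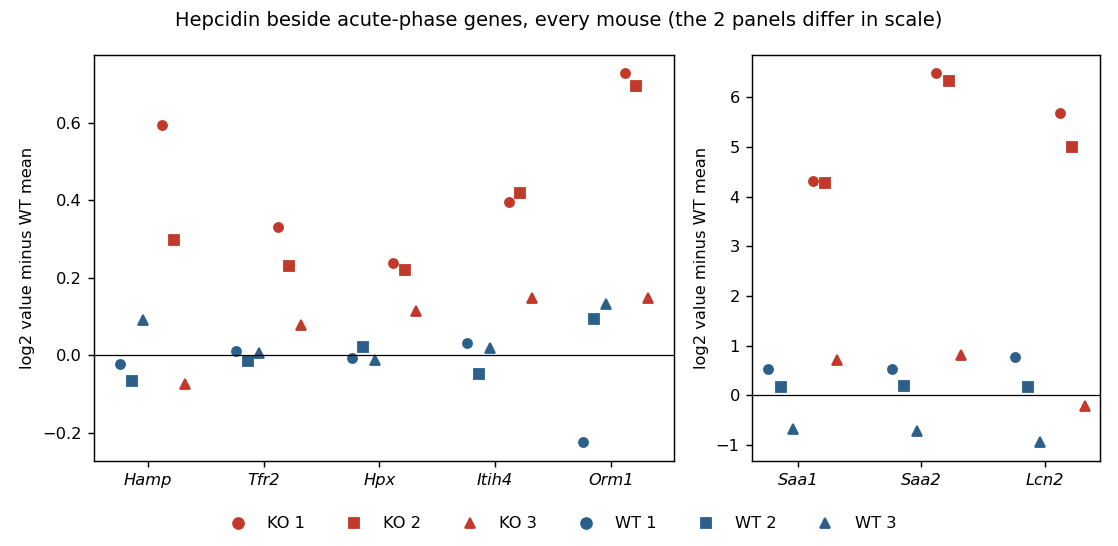
Log2 value minus the WT mean for Hamp, Tfr2, Lcn2 and 5 of the 14 acute-phase genes, with 1 point per mouse. The 5 shown, Hpx, Itih4, Orm1, Saa1 and Saa2, are those higher in KO without overlap. The rest of that list, among them Saa3 at -0.56, is not shown, and Lcn2 belongs to the iron uptake list. The right panel has a wider scale. KO 1 and KO 2 exceeded the WT mean by 0.59 and 0.30 for Hamp and by 5.69 and 4.99 for Lcn2, while KO 3 was at -0.07 and -0.22.

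Tfr2, the transferrin receptor of hepatocytes that senses plasma iron and promotes hepcidin synthesis, measured 13.58, 13.48 and 13.33 in KO and 13.26, 13.24 and 13.26 in WT. Every KO mouse was above every WT mouse, with KO 3 nearest to them. The difference was 0.21 (95% interval 0.01 to 0.41), with an unadjusted limma p of 0.0413 and an adjusted p of 0.333. This probe set is also of the kind that can match more than 1 transcript. The other Tfr2 probe set overlapped between groups, at 13.06, 13.03 and 12.77 in KO against 12.78, 12.72 and 12.89 in WT, a difference of 0.16.

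The other hepatocyte surface proteins that tune hepcidin gave 0 called genes of 9 tested (0 at an unadjusted limma p under 0.05), with 5 higher and 4 lower in the KO mean and a median of 0.01, while the mean of the list was marginally below 0. Hjv, the BMP co-receptor hemojuvelin, measured 9.55, 10.18 and 9.69 in KO and 9.90, 9.95 and 10.16 in WT, so that the KO mice spanned the WT values. Its difference of -0.19 was -0.062 without KO 1, -0.38 without KO 2 and -0.11 without WT 3. Tmprss6, the protease that cleaves hemojuvelin, differed by 0.02 and Hfe, the haemochromatosis protein, by 0.01. Neo1, a hemojuvelin-binding receptor, differed by 0.17 and the BMP receptor Bmpr2 by -0.07. Both changed sign, to -0.19 and 0.01, when the probe sets of a gene were averaged.

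Bmp6, the ligand through which iron loading raises hepcidin, was dim. It measured 3.997, 4.91 and 3.94 in KO and 3.95, 3.94 and 3.95 in WT, so only KO 2 reached 4 and no fold is given. Bmp2, the other main endothelial ligand, measured 8.98, 9.18 and 9.18 in KO and 9.09, 9.001 and 8.82 in WT. The groups overlapped, and the Bmp2 difference was 0.15 (limma adjusted p = 0.517). Gdf2, which encodes BMP9, a ligand made by stellate cells, was lower on every KO array, at 8.17, 8.37 and 8.53 against 8.80, 8.68 and 8.76 (difference -0.39, limma adjusted p = 0.25). Of 9 stellate cell markers 8 had the lower mean in KO, 3 without overlap, and 0 were called (2 at an unadjusted limma p under 0.05). Of all genes tested, 14% were lower in KO without overlap and 14.5% had an unadjusted limma p under 0.05. The stellate list means were 9.46, 9.71 and 9.80 on KO 1 to KO 3 and 9.79, 10.15 and 9.90 on WT 1 to WT 3. The highest, WT 2, is the array that held skeletal muscle transcripts. The part of stellate cells in the Gdf2 values was not tested.

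Id1, an inhibitor of helix-loop-helix factors and a direct transcriptional target of BMP signalling, had the largest difference of the 8 members. It measured 7.44, 7.59 and 6.54 on KO 1 to KO 3 and 8.77, 8.16 and 7.93 on WT 1 to WT 3. Every KO mouse was below every WT mouse, and KO 3 was the lowest. The means were 7.19 ± 0.57 and 8.28 ± 0.44 (SD, n = 3 each), so the KO mean was 46.8% of WT. The difference of -1.10 (95% interval -1.96 to -0.23) did not pass after adjustment (limma unadjusted p = 0.0213, adjusted p = 0.29). It lay between -1.30 and -0.77 with 1 array left out, the smallest size being without KO 3. On the arrays where Hamp was high, KO 1 and KO 2, Id1 was below every WT value.

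Smad7, the inhibitory SMAD that BMP and TGF-beta signals induce as feedback, measured 7.54, 6.84 and 6.49 in KO and 7.21, 6.54 and 6.51 in WT. The groups overlapped, KO 1 lying above and KO 3 below every WT mouse. The difference was 0.20 (95% interval -0.60 to 1.00, limma adjusted p = 0.778), and it ranged from -0.090 without KO 1 to 0.43 without KO 3; it was also over 1.5 times smaller without WT 2 (0.093) or WT 3 (0.080) and larger without WT 1 (0.43). The other Smad7 probe set gave a difference of -0.04. On the Smad7 set used, the order of the KO mice was that of Hamp, and opposite to that of Hmox1. On the other Smad7 set KO 2 was the lowest of the KO mice, so this order did not hold there.

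Among the other BMP ligands, SMADs and target genes, 12 were tested, of which 4 were higher and 8 lower in the KO mean and 0 were called (2 at an unadjusted limma p under 0.05). Their median was -0.06, and -0.19 without KO 3. Smad5, a transducer of BMP receptors, was lower on every KO array, at 8.10, 8.01 and 8.02 against 8.57, 8.25 and 8.55 (difference -0.42, limma adjusted p = 0.236); averaged over its probe sets the difference was -0.09. Id3, like Id1 a BMP target, measured 9.25, 9.04 and 8.59 in KO and 9.13, 9.51 and 9.56 in WT, with overlap and a difference of -0.44, which was -0.26 without KO 3. Id2 differed by -0.38 and Smad6 by -0.22, while Atoh8, another BMP target, was at 0.22.

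Endothelial cells also express Id genes and make BMP ligands. Of 11 endothelial markers 9 had the lower mean in KO, 7 without overlap, where 14% of all genes tested were lower without overlap. Of the 11 markers 2, Lyve1 at -1.32 and Thbd at -0.95, fell (limma adjusted p = 0.0353 for each). Both lost the call with any single array left out other than KO 3 (limma adjusted p between 0.129 and 0.202). List means were 8.29 to 8.72 in KO and 8.93 to 9.07 in WT, and no defining marker was at the lowest value. Clec4g, a sinusoidal lectin, and Fcgr2b differed by 0.07 and 0.06. The part of this in the Id1 values was not tested, and in whole liver fewer cells of a type cannot be told apart from less RNA per cell.

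**Figure D3:**
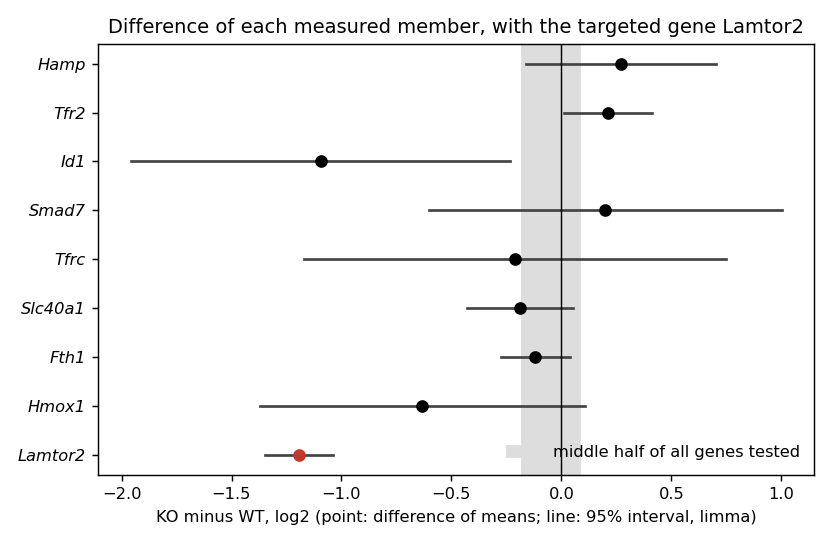
Difference of KO and WT means on the log2 scale for the 8 tested members and for Lamtor2 (red), with 95% intervals from limma; the grey band runs from the lower to the upper quartile of all genes tested. The intervals of Id1 (-1.96 to -0.23) and Tfr2 (0.01 to 0.41) do not include 0, before adjustment for the number of genes.

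Tfrc, the receptor through which most cells take up transferrin-bound iron, measured 9.32, 10.14 and 10.56 on KO 1 to KO 3 and 10.33, 10.64 and 9.69 on WT 1 to WT 3. The groups overlapped, and both ranges exceeded the difference of their means. That difference was -0.21 (95% interval -1.17 to 0.75, limma adjusted p = 0.809). Its sign depended on the data used, being 0.13 without KO 1, 0.00019 without WT 2 and 0.17 for the mean of its probe sets; it was -0.49 without KO 3 and -0.48 without WT 3.

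The probe sets of Tfrc disagreed in direction. A further set measured 6.02, 6.70 and 7.54 in KO and 6.35, 6.93 and 5.87 in WT, a difference of 0.37. The manufacturer's control set for the 3 prime end of Tfrc measured 5.28, 5.63 and 6.24 in KO and 4.61, 5.52 and 4.64 in WT, a difference of 0.80. All 3 of these sets put the KO mice in the same order, KO 3 highest and KO 1 lowest, which is the reverse of the Hamp order. The other 3 Tfrc sets were below 4 on every array. Across the members, 4 of 7 further probe sets past the filter had the direction of the set used; those that did not were the 2 of Tfrc and that of Smad7.

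The iron regulatory proteins act on the Tfrc transcript. Aco1, which encodes IRP1, measured 13.62, 13.55 and 13.62 in KO and 13.46, 13.44 and 13.26 in WT. Ireb2, which encodes IRP2, measured 10.51, 10.55 and 10.59 in KO and 10.31, 10.21 and 10.51 in WT. For both, all KO mice were above all WT mice, by 0.21 in the mean (limma adjusted p = 0.327 and 0.369); for Ireb2 the gap to WT 3 was narrow. Averaged over probe sets the Aco1 difference was 0.11, and that of Ireb2 was 0.12 with KO 3 and WT 2 left out. Fbxl5, the iron-sensing ligase subunit that marks IRP2 for degradation, differed by 0.01, and Cul1, of the same ligase, by -0.09. This list had 4 tested genes, 0 called (1 at an unadjusted limma p under 0.05), and a median of 0.11.

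Slc40a1, ferroportin, the only known cellular iron exporter of mammals, measured 12.77, 12.67 and 12.79 in KO and 12.95, 12.77 and 13.08 in WT. KO 2 was the lowest of the 6, while KO 1 and KO 3 lay just above WT 2, so the groups overlapped. The difference was -0.19 (95% interval -0.43 to 0.05, limma adjusted p = 0.408), and it lay between -0.27 without WT 2 and -0.11 without WT 3. The other probe set gave 11.51, 11.33 and 11.55 in KO and 11.32, 11.55 and 11.75 in WT, a difference of -0.08.

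Fth1, the ferritin heavy chain that stores iron, measured 15.29, 15.33 and 15.42 in KO and 15.49, 15.48 and 15.43 in WT. The groups did not overlap, but KO 3 and WT 3 were separated by only about 0.01 (15.423 and 15.434). The difference was -0.12 (95% interval -0.28 to 0.04, limma adjusted p = 0.421), and -0.071 after centring each array on its median. The name of this probe set, too, marks probes that can match more than 1 transcript. On the other Fth1 probe set the groups overlapped, with a difference of -0.07. Both sets were close to the top of the scale, where the highest value of the table was 16.33; no measure of saturation was analysed here.

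Other genes of iron uptake, storage and export numbered 11 tested, with 7 higher and 4 lower in the KO mean, 0 called (1 at an unadjusted limma p under 0.05) and a median of 0.05. Slc39a14, the ZIP14 importer of iron outside transferrin, was lower on every KO array, at 11.23, 11.32 and 11.34 against 11.67, 11.42 and 11.58 (difference -0.26, limma adjusted p = 0.298). For the mean of its probe sets the difference was -0.07. Pcbp2, an iron chaperone, differed by -0.17 without overlap, Cp, the plasma ferroxidase ceruloplasmin, by 0.05 and Ncoa4, the receptor for ferritin breakdown, by 0.09.

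Hmox1, haem oxygenase 1, which frees iron from haem and in liver is prominent in Kupffer cells, measured 7.11, 7.32 and 8.21 on KO 1 to KO 3 and 8.18, 8.35 and 8.001 on WT 1 to WT 3. KO 1 and KO 2 lay below every WT mouse, and KO 3 lay among the WT mice. The means were 7.55 ± 0.58 and 8.18 ± 0.17 (SD, n = 3 each). The difference of -0.63 (95% interval -1.37 to 0.11) did not pass (limma adjusted p = 0.385). Without KO 3 it was -0.96 with a limma adjusted p of 0.0587, and without KO 1 it was -0.42.

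Cd163, the macrophage receptor for haptoglobin-bound haemoglobin, measured 7.54, 8.63 and 9.02 in KO and 9.17, 9.15 and 8.97 in WT, with the same KO mice low (difference -0.70, limma adjusted p = 0.424). Among 13 macrophage markers all 13 were highest on KO 3 of the KO mice, and 11 had the order of Cd163, KO 1 lowest. Adgre1 and C1qb were lowest on KO 2. The share of all genes tested with this order was not counted. Across genes, the mean correlation with the WT mice rose in the same order, from 0.977 on KO 1 to 0.981 on KO 2 and 0.987 on KO 3. Clec4f, a Kupffer cell lectin, measured 10.64, 10.73 and 11.47 in KO and 11.62 to 11.78 in WT. All 13 markers had the lower mean in KO, 7 without overlap, and 0 were called (8 at an unadjusted limma p under 0.05), with a median of -0.86. Of all genes tested, 14% were lower in KO without overlap and 14.5% had an unadjusted limma p under 0.05. List means were 8.63, 8.96 and 9.80 on KO 1 to KO 3 and 10.04 to 10.14 in WT, and no marker was at the lowest value. The part of this in the Hmox1, Cd163 and Slc40a1 values was not tested.

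**Figure D4:**
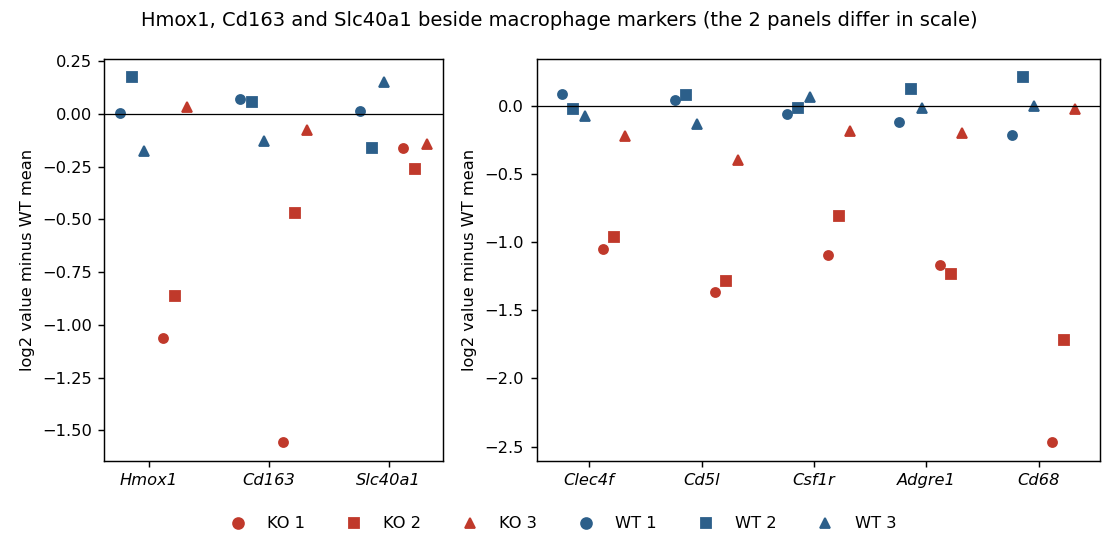
Log2 value minus the WT mean for Hmox1, Cd163 and Slc40a1 (left) and 5 macrophage markers (right), with 1 point per mouse; the panels differ in scale. KO 1 and KO 2 were low for Hmox1, Cd163 and the markers, with KO 3 near the WT mice, while the Slc40a1 values of all 3 KO mice lay together.

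Genes of haem handling and synthesis gave 0 calls among 18 tested (2 at an unadjusted limma p under 0.05), 5 higher and 13 lower in the KO mean, with a median of -0.09. Hpx, the plasma haem carrier hemopexin, measured 15.65, 15.63 and 15.52 in KO and 15.40, 15.43 and 15.40 in WT, without overlap (difference 0.19, limma adjusted p = 0.298); it is in the acute-phase list too. Bach1, the haem-sensing repressor of Hmox1, measured 10.57, 10.69 and 10.32 in KO and 10.40, 10.10 and 10.03 in WT, a difference of 0.35 (limma adjusted p = 0.345). The groups overlapped for Bach1, KO 3 lying below WT 1. The mice with the highest Bach1 values, KO 1 and KO 2, were those with the lowest Hmox1. Between these mice the order was not reversed, KO 1 having the lower value of both genes. Among the WT mice, WT 3 had the lowest value of both. The part of Bach1 in the Hmox1 values was not tested. Uros, an enzyme of haem synthesis, differed by 0.31 without overlap (0.16 for the mean of its probe sets), and Alas1, the rate-limiting enzyme of haem synthesis in liver, by -0.15.

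Mitochondrial iron and iron-sulfur cluster genes gave 0 calls among 9 tested (0 at an unadjusted limma p under 0.05), 5 higher and 4 lower, with a median of 0.02. Slc25a37, the mitochondrial iron importer mitoferrin 1, measured 9.33, 9.50 and 9.34 in KO and 9.27, 8.99 and 9.21 in WT, and Nfs1, the cysteine desulfurase, was also higher on every KO array, by 0.15, or 0.095 without WT 1. The Slc25a37 difference was 0.24, and 0.16 without WT 2. Of erythroid markers only Alas2, the haem synthesis enzyme of red cell precursors, was measured, at 10.04, 9.53 and 9.12 in KO and 8.995, 9.10 and 9.57 in WT. The groups overlapped, and 5 of the 7 erythroid markers with a probe set were below 4 on every array.

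The inflammatory arm of hepcidin control had 11 tested genes, 5 higher and 6 lower in the KO mean, 0 called (1 at an unadjusted limma p under 0.05) and a median of -0.01. Stat3, the transducer of interleukin-6, differed by -0.09, its receptor Il6ra by -0.18 and Il6st by 0.01. Socs3, a STAT3 feedback gene, measured 8.39, 7.67 and 7.06 in KO and 7.23, 7.55 and 7.47 in WT, highest on KO 1 and lowest on KO 3 (difference 0.29, limma adjusted p = 0.693). Cebpa, a factor for basal Hamp transcription, was lower on every KO array, at 12.83, 12.82 and 12.83 against 13.25, 12.95 and 13.22 (difference -0.32, limma adjusted p = 0.283). Creb3l3, the liver stress factor CREBH, was higher on every KO array, at 13.01, 13.06 and 12.73 against 12.67 to 12.72. Il6 was at the lowest value on every array.

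**Figure D5:**
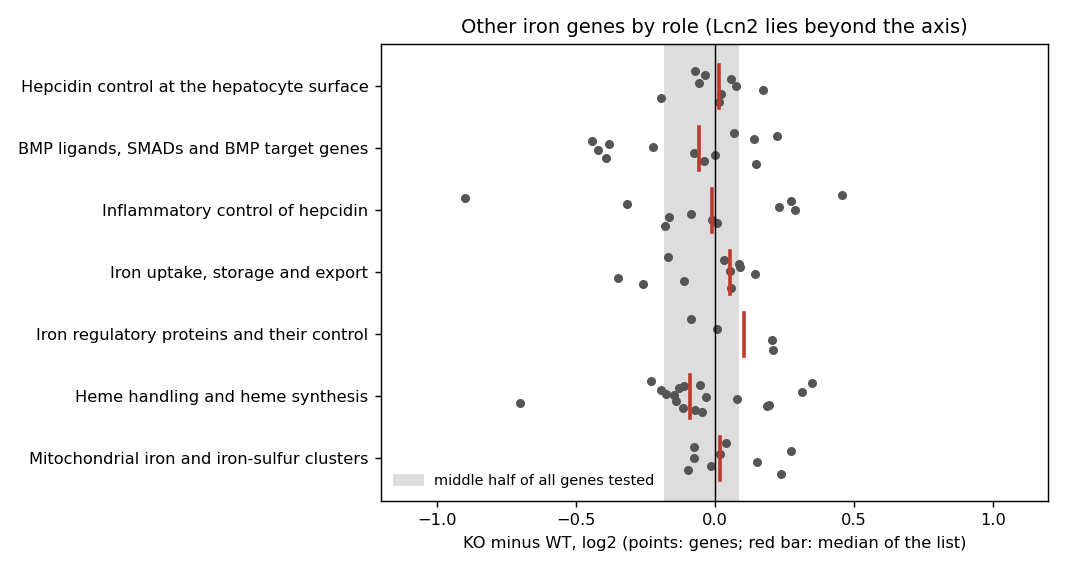
Difference of KO and WT means (log2) for the tested genes of 7 role lists, with 1 point per gene and a red bar at each median; the grey band runs from the lower to the upper quartile of all genes tested. List medians ran from -0.09 to 0.11, and Lcn2, at 3.49, lies beyond the axis.

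Over the 7 lists together, 74 of 90 named genes were tested, 34 higher and 40 lower in the KO mean, and 0 were called (limma, lowest adjusted p = 0.236; 7 at an unadjusted p under 0.05). Their median was -0.02, and the groups did not overlap for 7 higher and 6 lower genes, 17.6% against 20.5% of all genes.

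Outside the pathway, the genes nearest to Hamp in their centred values over the 6 arrays were Fitm2, a lipid droplet protein of the endoplasmic reticulum, Shld1, Sec11c, a signal peptidase subunit, and Cd276, at root mean square differences of 0.033, 0.046, 0.064 and 0.065. The median gene was at 0.28. For Slc40a1 they were Ado, Igf1r, Hif1an and Hadha at 0.023 to 0.033, where the median was 0.19. For Tfrc they were Col5a2, Plp2, Ifit3 and Calhm6 at 0.16 to 0.20, where the median was 0.50. Nearness over 6 arrays describes these mice only.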

How the data were processed

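Expression was deposited on a log2 scale, with 1 value for each probe set and mouse. The submitters' processing notes name GCRMA 2.16.0 and R 2.9.1 as the software the authors used; the log2 scale was inferred from values running from 2.18 to 16.33. GCRMA fits a background from probe sequence and normalises across arrays, so dim values carry little information. Of 45101 probe sets, 64 manufacturer controls were set aside, apart from those of Tfrc, 18S rRNA and pyruvate carboxylase; 34945 had a single gene symbol, 932 several and 9160 none listed. Each gene took its probe set with the highest mean. Genes reaching 4 in 3 or more of the 6 livers were kept (10009; 8184 were not). KO and WT were compared with limma 3.58.1 in R 4.3.3 (lmFit, eBayes, no covariates), Benjamini-Hochberg adjusted over all genes and called under 0.05, and with an exact permutation test for single values. The gene test was checked on simulated data, with 50 genes changed at each size. It recovered 36% of changes of 1.5 times, 74% of 2 times, 98% of 4 times and 94% of 8 times, with 2 false calls. The simulated noise was normal and independent between genes and arrays, and each change was the same on every KO array. In these data KO 3 and WT 2 stood apart, so these shares need not hold. Saa2, at a difference of 4.55 with KO 3 near the WT mice, was not called (limma adjusted p = 0.306). Precision is limited by the 6 arrays.

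The members and lists were chosen with earlier results of these data known. All members are named. From each pathway list the 3 genes with the smallest p, from each marker list the 2 brightest and the 2 with the smallest p, and for Hamp, Slc40a1 and Tfrc the 4 nearest genes were picked by rule; not all marker genes so picked are given, and other genes named were chosen after their values were seen. Alternatives covered the filter, scaling, low values, probe set choice, variance model, array weights, a replicate block and arrays left out. Each mouse counts as a biological replicate, per the labels. Figures used matplotlib 3.10.9.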

Additional observations from a re-analysis of the deposited data

How the results depend on the processing

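Members called by limma numbered 0 under all 18 alternatives, and the differences of the 8 tested members, Tfrc and Smad7 apart, kept their sign under all of them. Bmp6 had a value only with no filter. Tfrc was at 0.13 without KO 1, 0.00019 without WT 2 and 0.17 for the mean of its probe sets, and Smad7 at -0.090 without KO 1; with 1 array left out they ranged from -0.49 to 0.13 and from -0.090 to 0.43. Averaging probe sets also turned Bmpr2 (0.014) and Neo1 (-0.19). Over the alternatives Hamp ranged from 0.11 to 0.45, Tfr2 from 0.15 to 0.28, Id1 from -1.30 to -0.77, Slc40a1 from -0.29 to -0.11, Fth1 from -0.16 to -0.07 and Hmox1 from -0.96 to -0.42. The iron pathway lists gave 0 calls, or 1 (Lcn2) without KO 3, a range of 0 to 1 with an array left out. Over all genes 17 were called, against 10 with the filter at 6, 3 with no filter, 3 with KO 3 and WT 2 left out and 1 to 140 with 1 array left out (140 without KO 3). With the replicate number as a block limma called 0 genes, with 1235 at an unadjusted p under 0.05. Same-numbered arrays deviated together at correlations of -0.09, -0.08 and -0.14, so the numbers were not taken as pairs. The causes were not tested. With 3 mice a group, small differences are not resolved, and dim genes such as Bmp6 cannot be judged.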
